A study of Mus musculus with 10 samples.

Results

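The NF-kB pathway was followed through 10 of its genes in RNA-seq libraries of mouse proximal small intestine. These were the subunit genes *Nfkb1*, *Nfkb2*, *Rela* and *Relb*, the feedback regulators *Nfkbia*, *Nfkbiz* and *Tnfaip3*, the cytokine genes *Tnf* and *Il1b*, and the adhesion molecule gene *Icam1*. They were chosen by name, with earlier results of these data known, and all 10 were found among the 35275 Ensembl gene IDs counted. The libraries came from 5 wild-type mice (WT) and 5 mice lacking *Zip14* (*Slc39a14*), a cell surface importer of zinc and other metals (KO), with 1 library per mouse. The labels give the genotype as WT or KO and the age as 8 to 10 weeks. The series title speaks of a deletion in enterocytes, whereas the paper's methods give a whole-body knockout for these libraries, with controls of the same strain from matings of heterozygotes. No treatment is given, and the sex of each mouse is not given. RNA came from whole frozen segments, so epithelium, muscle and immune cells are mixed in every library. In such RNA, fewer cells of a type and less RNA per cell cannot be told apart.

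NF-kB is a family of dimeric transcription factors that are held in the cytoplasm by inhibitors of the IkB family. In the canonical arm, receptors for TNF, IL-1 or microbial products activate the IKK kinase complex, IkB proteins are destroyed, and dimers of RelA with p50, the product of *Nfkb1*, enter the nucleus. In the noncanonical arm, receptors such as the lymphotoxin beta receptor lead to processing of p100, the product of *Nfkb2*, to p52, which pairs with RelB. NF-kB switches on the genes of several of its own inhibitors, among them IkB alpha (*Nfkbia*) and A20 (*Tnfaip3*), and in the gut it is known for roles in epithelial defence and in the formation of lymphoid follicles.

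Libraries held 16729787 to 20819678 counts in WT and 17118742 to 19414828 in KO mice. Values are CPM, counts scaled to a common library size after TMM normalization, which adjusts the libraries so that most genes match. *Slc39a14* was 260.4 ± 62.5 CPM in WT and 102 ± 32.9 CPM in KO mice (SD, n = 5 each), and KO replicate 1 kept the most of the KO libraries, 160.1 CPM. The KO libraries also differed from WT in markers of gut region and layer. *Fabp6*, a fatty acid binding protein that carries bile acids in ileal cells, was 0.779 ± 0.607 CPM in WT and 5515 ± 2861 CPM in KO mice (SD, n = 5 each), so the proximal label is not borne out by this marker in the KO libraries. Of 10 smooth muscle markers 9 were higher in KO, and of 10 enterocyte markers 5 were lower. Genotype and these differences cannot be told apart in the fold changes below.

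The groups were compared by edgeR's quasi-likelihood test over 15610 genes. A gene is said to have risen or fallen where its p-value, adjusted by the Benjamini-Hochberg method over all of them, was under 0.05. All 10 NF-kB genes passed the filter on low counts. *Nfkb2*, *Relb*, *Nfkbia* and *Tnf* rose in KO mice, 0 of the 10 fell, and the other 6 did not pass the test. None of the 10 was lower at an unadjusted p under 0.05 either, and DESeq2 called 0 lower. Of all genes tested 29.9% were called, 16.0% as higher and 13.9% as lower, against 4 of 10 higher and 0 of 10 lower here. DESeq2 called the same 4 genes higher, beside 16.3% of all genes it tested. Every KO library lay above every WT library for *Nfkb2* and *Relb*, as it did for 10.2% of all genes tested. The median log2 fold change of the 10 genes was 0.26, and that of all genes tested was 0.03. As the 10 genes were chosen with earlier results of these data known, these shares and medians are not a test of the group.

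**Figure D1:**
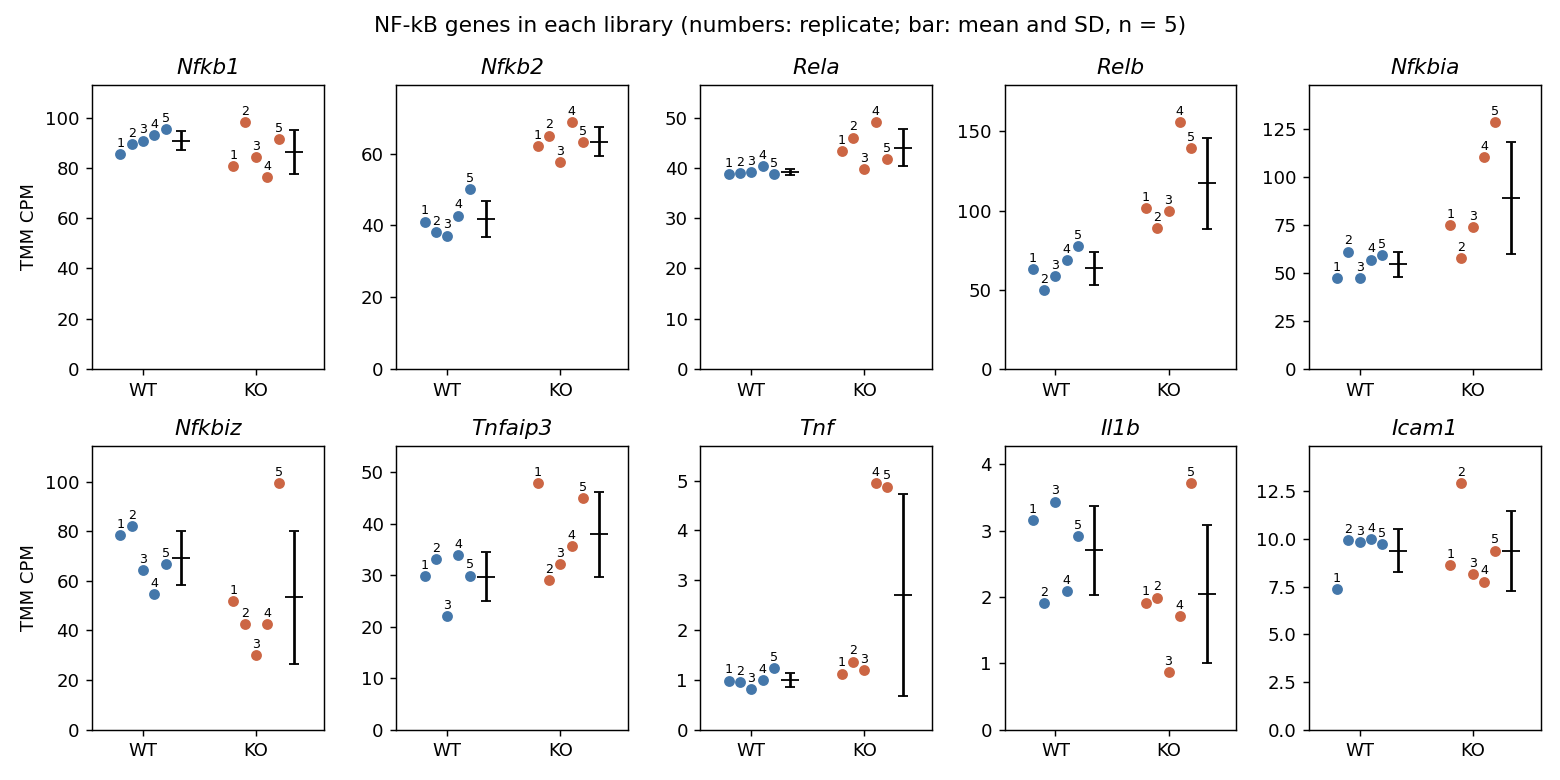
CPM after TMM normalization of the 10 NF-kB genes in each library, WT and KO, with a marker per mouse, the replicate number beside it, and bars for the mean and SD of 5 mice. The groups are apart for *Nfkb2* and *Relb*, and KO replicates 4 and 5 hold the high values of *Tnf*, 4.96 and 4.88 CPM.

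Of the subunits, the pair of the noncanonical arm rose and the canonical pair did not pass the test. *Nfkb2*, the gene of p100 and p52, rose 1.52-fold (95% interval 1.31 to 1.75). It held 41.1, 38.1, 37.2, 42.8 and 50.04 CPM in WT replicates 1 to 5 and 62.2, 65.0, 57.6, 68.9 and 63.3 CPM in KO replicates 1 to 5. The lowest KO library was above the highest WT library, and the KO libraries were the tighter group, with a coefficient of variation of 6.49% against 12.2% in WT. The log2 fold change was 0.60 ± 0.10 (SE), with an adjusted p of 0.00166 by edgeR's quasi-likelihood test. It stayed between 0.56 and 0.67 when each mouse was left out in turn, and passed the test all 10 times. *Nfkb2* (ENSMUSG00000025225) lies on the plus strand at chr19:46304320-46312385 of GRCm38. The end of its longest transcript overlaps the end of *Psd* on the other strand, and the use of strand in the counting is not known from the sources used here. *Psd* itself rose, from 21.3 ± 6.77 to 47.6 ± 21.97 CPM (SD, n = 5 each), and the part of its reads in the *Nfkb2* counts was not tested.

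The start of *Nfkb2* is shown because the factor's own binding motif occurs there, as it does at *Nfkbia* and *Tnfaip3*, which are known NF-kB targets. Capitals mark matches of either strand to the kB consensus motif of 10 bases, which may overlap each other. They were searched from 250 bases before to 50 bases after the start sites given by RefSeq (GRCm38.p6), which had windows for 7 of the 10 genes. For *Nfkb2*, whose window lies within an exon of a longer GENCODE transcript, the matches are shown with 9 bases on either side, and for the others the 130 bases before the start are shown.
Nfkb2, upstream match (chr19:46304689-46304717, plus strand): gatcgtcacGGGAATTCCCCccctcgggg
Nfkb2, downstream match (chr19:46304717-46304744, plus strand): gggccgaaaGGGGCTTTCCcggctggag
Nfkbia (chr12:55492648-55492777, minus strand): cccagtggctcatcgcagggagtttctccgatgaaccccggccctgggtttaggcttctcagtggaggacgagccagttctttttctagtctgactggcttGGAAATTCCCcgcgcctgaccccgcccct
Tnfaip3 (chr10:19015411-19015540, minus strand): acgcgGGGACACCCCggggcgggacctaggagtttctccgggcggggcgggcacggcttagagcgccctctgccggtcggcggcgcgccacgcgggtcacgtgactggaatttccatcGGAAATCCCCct
*Nfkb2* had 3 windows, for 3 start sites, and each held a match. In the window of the most upstream start, which is the one shown, 4 matches formed 2 stretches, beginning 39 and 11 bases before that start. *Nfkbia* had 1 match, beginning 29 bases before the start. *Tnfaip3* had 2 windows, of which the one shown held 2 matches, beginning 125 and 12 bases before the start, and the other held none. The windows of *Rela*, *Tnf*, *Il1b* and *Icam1* held none of these letters, and *Nfkb1*, *Relb* and *Nfkbiz* had no window. Thus 3 of 7 genes had a match (42.9%), beside 24 of 74 other pathway genes (32.4%) and 1388 of 27025 genes with a window (5.14%). Both groups of pathway genes include known NF-kB targets, so a share above that of all genes follows in part from how they were chosen. Of the 3 genes with a match, *Nfkb2* and *Nfkbia* rose and *Tnfaip3* did not pass the test. A match is a description of the letters, not a measured binding site.

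*Relb*, whose product is the partner of p52, rose 1.84-fold (95% interval 1.42 to 2.40). The WT libraries held 62.8, 49.8, 58.7, 68.6 and 77.6 CPM and the KO libraries 101.7, 89.1, 99.5, 156 and 139.4 CPM. All KO libraries lay above all WT libraries, and KO replicates 4 and 5 were the highest. The log2 fold change was 0.88 ± 0.17 (SE), with an adjusted p of 0.00434 by edgeR's quasi-likelihood test. It ranged from 0.76 to 0.96 when each mouse was left out in turn, and passed the test all 10 times. The gene (ENSMUSG00000002983) lies at chr7:19606217-19629438 on the minus strand of GRCm38, and no other gene overlaps it in GENCODE M21.

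*Rela* encodes the main activating subunit of the canonical arm. Its WT libraries were the most even of the 10 genes, at 38.8, 39.0, 39.1, 40.3 and 38.8 CPM, and its KO libraries held 43.4, 46.1, 39.8, 49.2 and 41.8 CPM. KO replicate 3 fell within the WT range and the other 4 lay above it. The log2 fold change was 0.17 ± 0.08 (SE), or 1.12-fold with a 95% interval of 0.999 to 1.26, and the adjusted p was 0.119 by edgeR's quasi-likelihood test. Scaled by library size alone the log2 fold change was 0.29 and passed the test (adjusted p 0.0274 by edgeR), a scaling under which the median log2 fold change of all genes was 0.15. The gene (ENSMUSG00000024927) lies at chr19:5637483-5648130 on the plus strand.

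*Nfkb1* encodes p105 and its product p50. Its libraries held 85.6, 89.6, 90.8, 92.9 and 95.5 CPM in WT and 80.6, 98.2, 84.3, 76.3 and 91.5 CPM in KO mice. The groups overlapped, with 1 KO library above and 3 below all WT libraries. The fold change of 0.949 had a 95% interval of 0.835 to 1.08, and the adjusted p was 0.511 by edgeR's quasi-likelihood test. The gene (ENSMUSG00000028163) lies at chr3:135584655-135691547 on the minus strand.

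The balance of the subunit transcripts was also taken within each library, as a ratio of CPM that does not depend on the scaling between libraries. The ratio of *Nfkb2* to *Nfkb1* ran from 0.409 to 0.524 in WT and from 0.662 to 0.902 in KO libraries, with no overlap. The ratio of *Relb* to *Rela* ran from 1.28 to 1.997 in WT and from 1.93 to 3.34 in KO libraries, where only KO replicate 2 reached into the WT range. The ratio of *Relb* to *Nfkb2* overlapped, at 1.31 to 1.61 in WT and 1.37 to 2.27 in KO libraries. These ratios are drawn from the same values as above and are not a separate result. The fifth subunit gene, *Rel*, which encodes c-Rel of lymphoid cells, was 4.35 ± 0.305 CPM in WT and 4.42 ± 2.58 CPM in KO mice (SD, n = 5 each). Its KO libraries spread to both sides, with replicates 2 and 3 above and replicates 4 and 5 below all WT libraries, and its adjusted p was 0.969 by edgeR's quasi-likelihood test.

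Among the feedback regulators, *Nfkbia* rose 1.64-fold (95% interval 1.21 to 2.22). It encodes IkB alpha, the inhibitor that NF-kB restores after each activation. Its libraries held 47.5, 61.2, 47.4, 57.0 and 59.4 CPM in WT and 75.0, 57.9, 73.9, 110.3 and 128.8 CPM in KO mice. KO replicate 2 lay within the WT range and KO replicates 4 and 5 were again the highest. The log2 fold change was 0.71 ± 0.20 (SE), with an adjusted p of 0.0222 by edgeR's quasi-likelihood test. The call was lost without WT replicate 1 (0.66, adjusted p 0.0575 by edgeR) or WT replicate 3 (0.66, adjusted p 0.0570), and held in the other 8 fits that left out a mouse. The gene (ENSMUSG00000021025) lies at chr12:55489410-55492647 on the minus strand.

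*Nfkbiz* encodes the nuclear IkB zeta, which works with p50 at a subset of target genes. Its WT libraries held 78.3, 81.9, 64.3, 54.7 and 66.8 CPM and its KO libraries 51.7, 42.6, 30.2, 42.6 and 99.5 CPM. KO replicates 1 to 4 lay below all WT libraries and KO replicate 5 above them all. The fold change over all mice was 0.771 (95% interval 0.509 to 1.17), with an adjusted p of 0.311 by edgeR's quasi-likelihood test. With KO replicate 5 left out, *Nfkbiz* stood at a log2 fold change of -0.73 and passed the test (adjusted p 0.0113 by edgeR). The gene (ENSMUSG00000035356) lies at chr16:55811375-55838899 on the minus strand.

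*Tnfaip3* encodes A20, a ubiquitin-editing enzyme that ends signalling from TNF and Toll-like receptors. Its WT libraries held 29.8, 33.2, 22.05, 33.9 and 29.9 CPM and its KO libraries 48.0, 29.1, 32.1, 35.6 and 45.0 CPM. KO replicates 1, 4 and 5 lay above all WT libraries and the other KO libraries within their range. The fold change was 1.27 (95% interval 0.996 to 1.63), with an adjusted p of 0.121 by edgeR's quasi-likelihood test. Scaled by library size alone its log2 fold change was 0.46 in place of 0.35 and passed the test (adjusted p 0.0347 by edgeR). The gene (ENSMUSG00000019850) lies at chr10:19000910-19015657 on the minus strand.

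**Figure D2:**
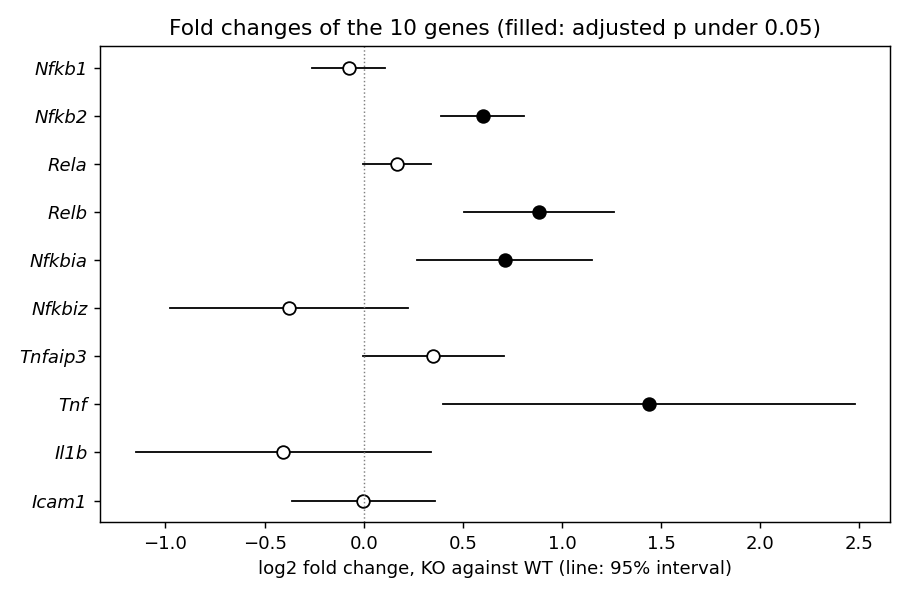
Log2 fold change (KO over WT) of the 10 NF-kB genes with 95% intervals from edgeR's fit, for 5 mice per group, with the genes that passed the test filled. *Nfkb2*, *Relb*, *Nfkbia* and *Tnf* lie to the right of 0, and *Tnf* has the widest interval, 0.40 to 2.48.

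The cytokine genes were the least abundant. *Tnf*, the gene of the cytokine TNF that triggers the canonical arm, rose 2.71-fold (95% interval 1.32 to 5.56). Its WT libraries held 0.986, 0.957, 0.817, 0.989 and 1.23 CPM and its KO libraries 1.13, 1.36, 1.19, 4.96 and 4.88 CPM. KO replicates 4 and 5 stood far above the rest, KO replicate 2 lay just above the WT range, and KO replicates 1 and 3 lay within it. The libraries held only 14 to 104 counts each, 88 in all WT and 265 in all KO libraries, and the KO coefficient of variation was 74.9%. The log2 fold change was 1.44 ± 0.47 (SE), with an adjusted p of 0.0410 by edgeR's quasi-likelihood test. It passed the test in only 3 of the 10 fits that left out a mouse, those without KO replicate 1, 2 or 3. Without KO replicate 4 it was 1.10 (adjusted p 0.0989 by edgeR), and without KO replicate 5 it was 1.12 (adjusted p 0.0892). Over the 10 fits it ranged from 1.10 to 1.63 and the adjusted p from 0.0190 to 0.0989. *Tnf* (ENSMUSG00000024401) lies at chr17:35199381-35202007 on the minus strand.

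*Il1b*, the gene of interleukin-1 beta of activated myeloid cells, did not pass the test. Its WT libraries held 3.17, 1.91, 3.44, 2.09 and 2.91 CPM and its KO libraries 1.92, 1.99, 0.864, 1.72 and 3.72 CPM. The groups overlapped, with KO replicate 3 the lowest and KO replicate 5 the highest of all libraries. The fold change was 0.755 (95% interval 0.451 to 1.26), with an adjusted p of 0.382 by edgeR's quasi-likelihood test, on 16 to 71 counts per library. The gene (ENSMUSG00000027398) lies at chr2:129364570-129371139 on the minus strand and overlaps the antisense gene *Il1bos*, which had 12 counts in all WT and 17 in all KO libraries.

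*Icam1*, a classical NF-kB target, encodes the adhesion molecule by which leukocytes attach to endothelium and epithelium. Its WT libraries held 7.37, 9.95, 9.86, 10.0 and 9.75 CPM and its KO libraries 8.62, 13.0, 8.15, 7.77 and 9.39 CPM. The groups overlapped, and their means were 9.39 ± 1.13 and 9.38 ± 2.09 CPM (SD, n = 5 each). The fold change of 0.999 had a 95% interval of 0.778 to 1.28, so that changes within these bounds were not resolved, and the adjusted p was 0.997 by edgeR's quasi-likelihood test. The gene (ENSMUSG00000037405) lies at chr9:21015985-21028817 on the plus strand.

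To order the genes by level, CPM was divided by the length of each gene's merged exons, in kilobases. In WT mice *Nfkbia* was the most abundant at 33.8 ± 4.10 CPM per kb (SD, n = 5), above the range of all others. *Relb* at 16.3 ± 2.68, *Nfkbiz* at 13.8 ± 2.19 and *Rela* at 12.8 ± 0.210 CPM per kb followed with overlapping ranges. *Nfkb2* at 9.13 ± 1.11 and *Nfkb1* at 7.53 ± 0.308 CPM per kb came next, and the range of *Nfkb1*, 7.10 to 7.92 CPM per kb, ended below that of *Nfkb2*, 8.11 to 10.9. This order depends on the length used, 12061 bases for *Nfkb1* and 4584 for *Nfkb2*. In CPM *Nfkb1* was the higher of this pair, at 90.9 against 41.8 in WT mice. *Tnfaip3* followed at 4.12 ± 0.649 CPM per kb, *Icam1* at 2.15 ± 0.260 and *Il1b* at 1.42 ± 0.352, the last pair with overlapping ranges. *Tnf* was lowest at 0.608 ± 0.0915 CPM per kb. In KO mice *Nfkbia* was at 55.4 ± 18.2 and *Relb* at 30.2 ± 7.44 CPM per kb, still the highest by their means. *Nfkb2* stood at 13.8 ± 0.898 CPM per kb beside *Rela* at 14.3 ± 1.20, and *Tnf*, at 1.65 ± 1.23, stood beside *Il1b* at 1.07 ± 0.547.

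The spread between mice differed from gene to gene. In WT mice the coefficient of variation of CPM ran from 1.65% for *Rela* to 24.8% for *Il1b*. In KO mice it ran from 6.49% for *Nfkb2* to 74.9% for *Tnf*, and it was larger than in WT for every gene except *Nfkb2*. The share of all genes with a wider spread in KO mice was not counted, so this is not shown to be particular to the 10 genes. KO replicates 4 and 5 were the highest KO libraries for *Relb*, *Nfkbia* and *Tnf* alike. For each gene that rose, the tested genes with the most similar profile were sought, by the root mean square difference of log2 CPM over the 10 libraries after centring each gene on its mean. For *Nfkb2* these were *Slc45a4* and *Lipo3*, both at 0.09. For *Relb* they were *Prmt2* at 0.09 and *Zfp444* at 0.12, and for *Nfkbia* they were *Magohb* at 0.15 and *Stmn1* at 0.17. For *Tnf* the nearest, *C2* at 0.37 and *Sct* at 0.38, were farther away. The measure is not scaled by a gene's own spread, which in KO mice was largest for *Tnf*, so this does not show a more distinct profile.

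The rest of the pathway was taken from lists of 96 further genes, of which 85 passed the filter. Of these 9 rose (10.6%) and 11 fell (12.9%), shares below the 16.0% and 13.9% of all genes tested, and their median log2 fold change was -0.03. Genes of the lists named below for having passed the test were, unless they were among the most abundant or the most changed of their list, chosen after their values were seen.

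**Figure D3:**
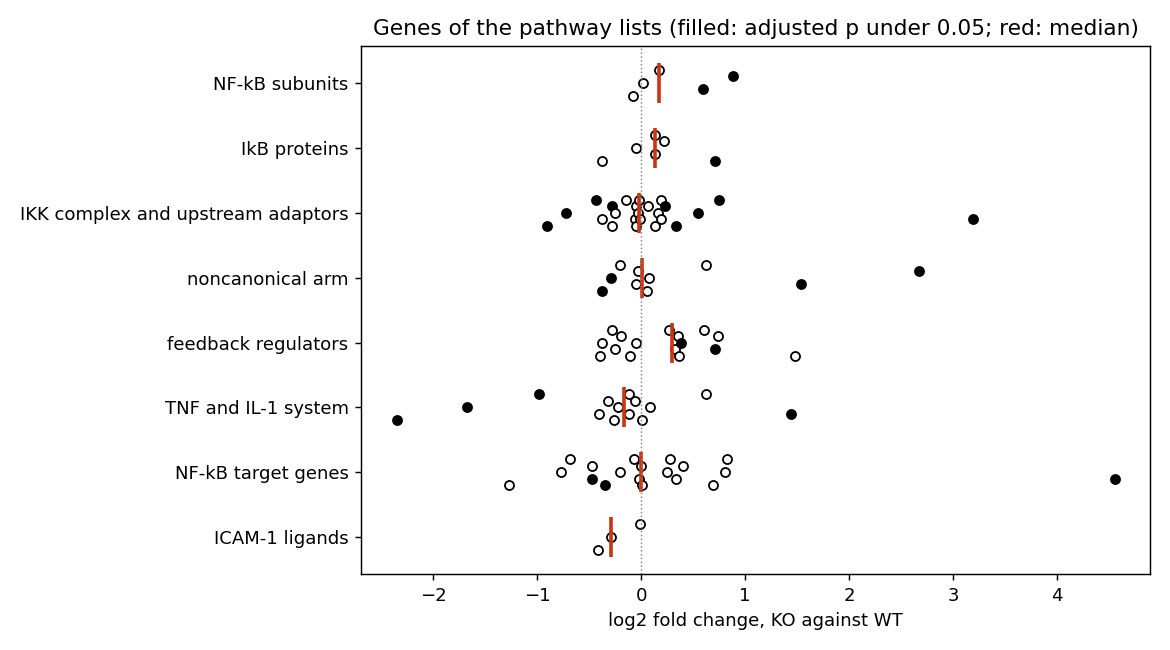
Log2 fold change (KO over WT) of the tested genes of each pathway list, 1 point per gene, with genes that passed edgeR's test filled and the median of each list as a bar. Points lie on both sides of 0 in most lists, and *Nos2* at 4.55 and *Card9* at 3.19 are the highest.

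Of 24 genes of the IKK complex and its adaptors, 5 rose and 4 fell. *Card9*, the adaptor of fungal pattern receptors in myeloid cells, rose from 2.95 ± 0.546 to 27.0 ± 16.9 CPM (SD, n = 5 each), with 12.8, 15.5, 16.3, 42.0 and 48.5 CPM in the KO libraries and an adjusted p of 0.000543 by edgeR. KO replicates 4 and 5 were the highest here too. Its partner *Bcl10* rose from 41.4 ± 4.56 to 60.6 ± 4.84 CPM, with an adjusted p of 0.00282 by edgeR. *Tradd*, *Traf5* and *Ikbkb* rose as well, but passed the test in only 1, 2 and 3 of the 10 fits that left out a mouse. The kinase subunits were called in opposite directions, and the difference between them was not tested. *Ikbkg*, the gene of the regulatory subunit, was not called (log2 fold change -0.15, adjusted p 0.172 by edgeR). *Chuk* (IKK alpha), the kinase that acts on p100, fell from 149.9 ± 18.8 to 90.8 ± 12.02 CPM (SD, n = 5 each), with an adjusted p of 0.00190 by edgeR, while *Ikbkb* (IKK beta) rose from 58.6 ± 4.27 to 68.6 ± 3.40 CPM (adjusted p 0.0429 by edgeR). *Tab3* of the TAK1 complex fell from 31.3 ± 3.88 to 16.7 ± 2.87 CPM (adjusted p 0.00123 by edgeR). *Irak2* of IL-1 and Toll-like receptor signalling fell from 94.4 ± 5.29 to 69.7 ± 5.84 CPM (adjusted p 0.00332 by edgeR), and *Irak4* of the same route fell by 0.28 on the log2 scale (adjusted p 0.0253, called in 6 of the 10 fits that left out a mouse). With the B cell marker level as a covariate, 2 of the 24 genes were called higher and 3 lower. *Ikbkb* was then at 0.21 and not called (adjusted p 0.134 by edgeR).

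In the noncanonical arm upstream of *Nfkb2* and *Relb*, 2 of 10 tested genes rose and 2 fell, and the median log2 fold change was 0.01. *Ltb* (lymphotoxin beta) rose by a log2 fold change of 1.54 (adjusted p 0.0343 by edgeR) and *Tnfrsf13c*, the BAFF receptor of B cells, by 2.67 (adjusted p 0.0428), each called in only 3 of the 10 fits that left out a mouse. *Ltb* held 20.2, 21.3 and 26.7 CPM in KO replicates 2, 3 and 4, but 5.18 and 6.40 CPM in KO replicates 1 and 5, and 10.8 CPM in WT replicate 5 against 3.74 to 4.45 CPM in the other WT libraries. *Tnfrsf13c* held 12.5, 18.6 and 22.2 CPM in KO replicates 2, 3 and 4, but 1.18 and 1.63 CPM in KO replicates 1 and 5. KO replicates 2, 3 and 4 and WT replicate 5 were also the libraries with high sums of B cell markers, given below. With the B cell level as a covariate, the log2 fold change of *Ltb* was 0.47 (adjusted p 0.0560 by edgeR) and that of *Tnfrsf13c* 0.70 (adjusted p 0.0615). The receptor gene *Ltbr* fell from 146 ± 15.9 to 119.8 ± 5.61 CPM (adjusted p 0.0357 by edgeR, called in 4 of 10 such fits). *Birc2*, whose product keeps the arm silent by marking its kinase NIK for destruction, fell from 52.2 ± 6.33 to 40.1 ± 2.28 CPM (adjusted p 0.0128 by edgeR). With the B cell covariate these calls were lost too, with *Ltbr* at -0.25 (adjusted p 0.150 by edgeR) and *Birc2* at -0.37 (adjusted p 0.0524). The gene of NIK, *Map3k14*, was 9.87 ± 1.16 CPM in WT and 10.3 ± 1.84 CPM in KO mice (SD, n = 5 each), with an adjusted p of 0.798 by edgeR. The ligand genes *Lta*, *Cd40lg* and *Tnfsf11* were below edgeR's filter. DESeq2 called *Lta* higher, at 25 counts in all WT and 128 in all KO libraries (adjusted p 0.0499), and *Tnfsf11* higher, at 25 and 88 counts (adjusted p 0.0272), while *Cd40lg* had 29 and 23 counts.

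Of 6 genes of IkB proteins, *Nfkbia* was the only one to pass the test. Of 16 feedback regulators, *Nfkbia* and *Otulin*, a deubiquitinase of linear chains, passed the test, both higher, and the median log2 fold change was 0.29. These are 12.5% of the list, beside 16.0% of all genes tested, and without the 10 NF-kB genes 1 of 13 rose. *Tax1bp1*, the most abundant of the list, went from 383.1 ± 48.5 to 291.8 ± 47.7 CPM (SD, n = 5 each). It was not called by edgeR (log2 fold change -0.39, adjusted p 0.0510) and was called lower by DESeq2 (adjusted p 0.0251). *Otulin* went from 16.6 ± 1.17 to 21.7 ± 2.63 CPM (adjusted p 0.0196 by edgeR) and passed the test in 8 of the 10 fits that left out a mouse. It lost its call with the B cell covariate (0.31, adjusted p 0.113 by edgeR). In the TNF and IL-1 system *Tnf* was the only 1 of 14 genes to rise, and 3 fell. *Il18*, an epithelial cytokine of the IL-1 family, fell from 76.2 ± 17.2 to 14.98 ± 3.02 CPM (SD, n = 5 each), with an adjusted p of 6.66e-05 by edgeR. *Il1a*, next to *Il1b* on chromosome 2, fell from 1.83 ± 0.561 to 0.568 ± 0.316 CPM (adjusted p 0.00689 by edgeR), and *Il1r2*, a decoy receptor, fell by 0.98 on the log2 scale (adjusted p 0.0204 by edgeR, called in 9 of the 10 fits that left out a mouse).

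Of 27 known target genes beside which *Icam1* was listed, itself included, 19 were tested, 1 rose and 2 fell, with a median log2 fold change of 0.00. *Nos2*, inducible nitric oxide synthase, rose from 5.79 ± 5.93 to 136.7 ± 135 CPM (SD, n = 5 each), with an adjusted p of 0.00375 by edgeR. Its KO libraries held 154.2, 73.4, 19.8, 73.8 and 362.5 CPM, all above the highest WT library at 16.0 CPM. *Sod2*, the mitochondrial superoxide dismutase, fell from 91.5 ± 10.5 to 71.9 ± 7.11 CPM (adjusted p 0.0269 by edgeR) and *Gadd45b* from 18.3 ± 3.30 to 13.2 ± 1.69 CPM (adjusted p 0.0285), called in 6 and 5 of the 10 fits that left out a mouse. With the B cell covariate neither *Sod2* (-0.32, adjusted p 0.108 by edgeR) nor *Gadd45b* (-0.49, adjusted p 0.0832) was called. The 8 target genes below the filter included the cytokine genes *Il6*, *Cxcl1*, *Cxcl2*, *Csf2*, *Csf3* and *Il23a*, with at most 43 counts over the WT and at most 35 over the KO libraries. Of these, *Csf2* had 41 counts in all WT and 4 in all KO libraries and *Cxcl2* 43 and 11. Both were outside edgeR's test, and DESeq2, which kept them, called both lower (adjusted p 0.00180 and 0.0182). Among the tested targets, DESeq2 also called *Cfb* lower (log2 fold change -0.78, adjusted p 0.0254), which edgeR did not (adjusted p 0.0573). The genes of the leukocyte integrins that bind ICAM-1, *Itgal*, *Itgam* and *Itgb2*, were not called by edgeR or DESeq2, and had no unadjusted p under 0.05 by edgeR.

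Markers of other cell types moved with the groups or with single KO libraries. The summed level of 8 B cell markers, of which 5 were tested, was 15.5, 200.6, 219.5, 274.6 and 26.0 CPM in KO replicates 1 to 5, and 119.5 CPM in WT replicate 5 against 14.2 to 23.3 CPM in the other WT libraries. By edgeR 0 of the 5 were called, with 2 at an unadjusted p under 0.05, and DESeq2 called 1, *Cd79a*, higher (log2 fold change 1.64, adjusted p 0.0357). *Pax5* and *Fcer2a* of this list were at 0 in some libraries. In KO replicates 1 and 5, where these sums were low, *Nfkb2* was 62.2 and 63.3 CPM and *Relb* 101.7 and 139.4 CPM, above every WT library. In KO replicates 2, 3 and 4, where the sums were high, *Nfkb2* was 65.0, 57.6 and 68.9 CPM and *Relb* 89.1, 99.5 and 156 CPM. The part of B cells in these levels was not tested beyond the covariate fit that follows. Of 5 tested markers of lymphoid stroma 4 rose, with sums of 22.01 to 113 CPM in WT and 44.7 to 289.8 CPM in KO libraries. *Ccl19* and *Fcer2a* of that list were at 0 in some libraries. With the B cell level as a covariate *Nfkb2* and *Relb* stayed called, while *Nfkbia* (log2 fold change 0.76, adjusted p 0.0512 by edgeR) and *Tnf* (1.41, adjusted p 0.108) did not pass.

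Smooth muscle markers summed to 1626 to 2659 CPM in WT and 3598 to 10438 CPM in KO libraries, with KO replicate 4 the highest. With their mean log2 level as a covariate 18 of all genes were called and 0 of the 10 NF-kB genes, and the log2 fold changes were 0.43 for *Nfkb2*, 0.26 for *Relb*, 0.36 for *Nfkbia* and 0.30 for *Tnf*. The muscle level ran from 6.68 to 7.44 in WT and from 8.06 to 9.47 in KO libraries on the log2 scale, without overlap, so muscle content and genotype cannot be told apart. The ileum markers, 6 of 7 higher, summed to 604 to 1365 CPM in WT and 4021 to 11167 CPM in KO libraries. KO replicates 4 and 5 were the highest in this sum, as they were for *Relb*, *Nfkbia* and *Tnf*, and the part of gut region in these results was not tested. *Fgf15* of the ileum list was at 0 in some libraries. Enterocyte markers summed to 35066 to 46576 CPM in WT and 14278 to 31864 CPM in KO libraries.

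No KO library lay above the WT range in the sums of the myeloid markers. Macrophage markers, 1 of 8 higher and 2 lower, summed to 280.2 to 397 CPM in WT and 201 to 360.5 CPM in KO libraries. The one that rose, *Cd14*, the coreceptor for lipopolysaccharide, held 4.96 to 5.94 CPM in WT and 10.1 to 16.5 CPM in KO libraries, 2.56-fold higher without overlap (adjusted p 0.000286 by edgeR). Of the 2 that fell, *Itgax* (CD11c) went from 47.7 ± 7.63 to 21.95 ± 11.2 CPM without overlap (log2 fold change -1.12, adjusted p 0.0160 by edgeR) and *Csf1r*, the receptor for the growth factor CSF-1, from 106.7 ± 15.2 to 60.2 ± 24.8 CPM (log2 fold change -0.83, adjusted p 0.0298). Neutrophil markers summed to 3.27 to 5.54 CPM in WT and 2.19 to 4.17 CPM in KO libraries, with *S100a8*, *S100a9*, *Ly6g*, *Mpo*, *Elane* and *Cxcr2* at 0 in some libraries and 1 of 7 tested. The 7 T cell markers summed to 42.3 to 83.5 CPM in WT and 31.0 to 56.0 CPM in KO libraries. By edgeR 0 of them were called, with 3 at an unadjusted p under 0.05, and DESeq2 called 1, *Cd3e*, lower (log2 fold change -0.80, adjusted p 0.0416). Plasma cell markers, 1 of 6 higher, summed to 1043 to 1665 CPM in WT and 625 to 1905 CPM in KO libraries. Of 8 endothelial markers, on whose cells ICAM-1 is known to sit, 3 were lower, with sums of 192 to 221 CPM in WT and 134 to 232 CPM in KO libraries. Of 6 fibroblast markers 2 were higher, with sums of 791 to 1054 CPM in WT and 732 to 1450.1 CPM in KO libraries. The part of these cells in the NF-kB results was not tested.

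**Figure D4:**
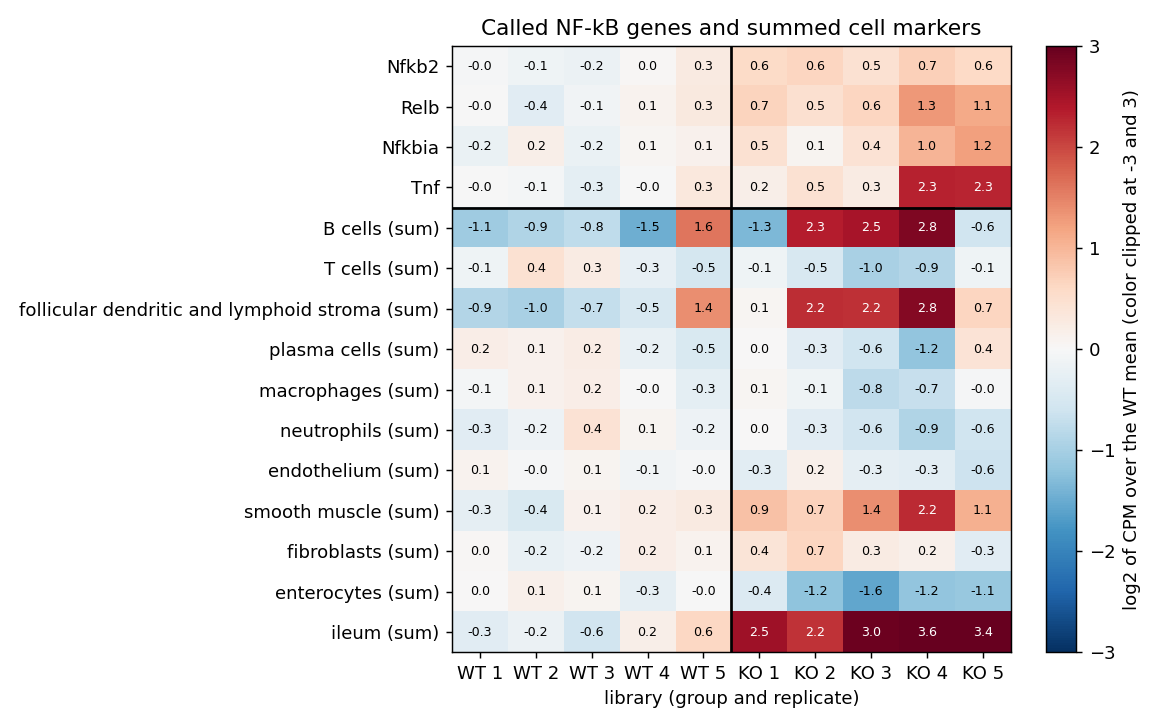
Heat map with 1 column per library and 1 row for each NF-kB gene that rose or for the summed CPM of each marker list, with each cell giving log2 of CPM over the WT mean. The smooth muscle and ileum sums are higher in all 5 KO libraries, and the B cell sums are high in WT replicate 5 and in KO replicates 2, 3 and 4.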

How the data were processed

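The authors extracted RNA from frozen proximal intestinal segments of individual mice, made SMARTer mRNA-Seq libraries and sequenced them on a NovaSeq. The submitters' processing notes name FastQC 0.11.9, Trimmomatic, HISAT2 2.0.4, SAMtools 1.3.1 and DESeq2 1.14.1, and the builds GRCm38 and mm10. Which counter and annotation were used, and whether by strand, is not given in the sources used here. Raw values were deposited: the authors gave read counts per Ensembl gene ID in 1 table per mouse, not normalized. P-values measure the spread between mice.

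Symbols came from GENCODE M21, which matched 34490 of 35275 IDs. Genes kept by edgeR 4.0.16 filterByExpr (minimum count 10, minimum total 15) were normalized by TMM and tested KO against WT on all 10 libraries with edgeR's quasi-likelihood test (limma 3.58.1, R 4.3.3), without covariates, with Benjamini-Hochberg adjustment over all 15610 genes tested and a threshold of 0.05. CPM are given without a prior count, and log2 CPM with a prior count of 2. The fit was tested on simulated counts first.

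The 10 genes and the lists were chosen with earlier results of these data known. Beside the 10 genes, the rule named the 3 most abundant genes of each list and its called genes with the highest and the lowest log2 fold change, the 2 genes nearest in profile to each called gene, *Slc39a14* and *Fabp6*. Alternatives were RLE normalization, library size only, DESeq2 1.42.0, robust dispersion, no filter or one on the mean count (10 or more), the replicate number as a block, the smooth muscle or B cell marker level as a covariate, and leaving out each mouse. Promoter windows were from RefSeq.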

Additional observations from a re-analysis of the deposited data

Results flagged for a closer look

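In 22 sets of 5 mice, the highest or lowest library was set against the others by the share of the group's range that lay in its gap to the nearest one, with 0.71 as Dixon's critical value. Chance alone passes about 1 set in 20, and 3 passed. WT replicate 4 held the most *Rela* of the WT mice, 40.3 CPM against 39.1 CPM in the nearest, a gap of 0.762 of a very narrow range. WT replicate 1 held the least *Icam1* of the WT mice, 7.37 CPM against 9.75 CPM in the nearest, a gap of 0.904 of the range. KO replicate 1 held 160.1 CPM of *Slc39a14* against 93.8 CPM in the nearest KO library, a gap of 0.813 of the range.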

How the results depend on the processing

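The log2 fold changes of *Nfkb2*, *Relb*, *Nfkbia* and *Tnf* kept a positive sign in every alternative run, though not their calls, and the cause of each change below was not tested. With the smooth muscle covariate 18 in place of 4660 genes were called, with 0 of the 10 NF-kB genes higher, 0 other pathway genes higher and 1 lower. With the B cell covariate the counts were 2211 genes, 2 NF-kB genes, 3 other pathway genes higher and 5 lower. By library size only 7 other pathway genes were lower in place of 11, and 69.4% in place of 53.5% of all calls were higher. *Nfkb1* turned to 0.047 by library size only and 0.058 with the smooth muscle covariate, and *Icam1* to 0.12 and 0.29. The smooth muscle covariate also turned *Nfkbiz* (0.25), *Psd* (-0.27), *Traf5* (-0.27) and *Tax1bp1* (0.11), and the B cell covariate turned *Rel* (-0.24). *Tnf* lost its call without a filter (1.41, adjusted p 0.0504 by edgeR).

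Leaving out each mouse in turn gave 3207 to 5507 genes, 2 to 4 NF-kB genes higher and 0 to 1 lower, 3 to 10 other pathway genes higher and 6 to 14 lower. The NF-kB genes higher were 2 without WT replicate 1 or 3, and *Nfkbiz* was the gene lower without KO replicate 5. *Icam1* ranged from -0.15 to 0.061, *Rel* from -0.27 to 0.22 and *Irf1* from -0.10 to 0.40, the latter negative only without KO replicate 5.

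The labels number the mice 1 to 5 in both groups. Deviations from the group means of same-numbered mice correlated between -0.17 and 0.18, and 1 of 5 WT mice correlated best with its own number. This gave no sign of pairing by number, but it cannot exclude a shared litter or batch. With the replicate block 5 in place of 9 other pathway genes were higher, *Rel* was -0.18, and *Tnf* was 1.16 (adjusted p 0.0666 by edgeR). All 10 genes passed the filter, so the alternatives planned for genes below it had nothing to run on.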
